A study of Mus musculus with 6 samples.

Results

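Granzymes and perforin are the killing proteins of cytotoxic lymphocytes, and the deposited count table was searched for the genes encoding them: Gzma, Gzmb, Gzmc, Gzmd, Gzme, Gzmf, Gzmg, Gzmk, Gzmm and Prf1. The members were the rows whose gene symbol equals one of these names, and all 10 of 10 were found among the 16281 genes of the table. Of these, 9 passed the filter on low counts and entered the test, which ran over 11698 genes, and Gzmg did not pass it. A further mouse granzyme gene, Gzmn, was absent from the table.

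The study asked how blocking the histone demethylase LSD1 during culture changes CD8+ T cells meant for adoptive transfer. All 6 samples were CD8+ T cells from the spleens of OT1 mice, a C57BL/6 line of genotype Tg(TcraTcrb)1100Mjb whose T cells carry 1 transgenic receptor against an ovalbumin peptide. Every culture received plate-bound anti-CD3 at 2 µg/ml, soluble anti-CD28 at 2 µg/ml and IL-2 at 20 ng/ml for 48 h, then fresh medium with IL-2 for 3 days, so that RNA was taken on day 5. In the GSK group (n = 3) the irreversible LSD1 inhibitor GSK2879552 was present at 0.5 µM throughout activation and expansion, and the Veh group (n = 3) received vehicle instead. The age of the mice is not given in the sources used here. The study took cells from 3 separate mice and counts 3 mice per group, but the labels do not tie a sample to an animal. The p-values therefore measure the spread between these samples. The cells grew in a dish with no target cells, and only RNA is described here, not granule protein or killing.

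Perforin forms pores in the membrane of a target cell, and granzymes are serine proteases that enter through this route and cut proteins that keep the target alive. Both are stored in acidified secretory granules bound to the proteoglycan serglycin, and granzymes are made as inactive precursors that cathepsin C trims. In mice the genes lie at 4 places: Gzmb and its rodent relatives Gzmc, Gzmd, Gzme, Gzmf and Gzmg in a row on chromosome 14, Gzma and Gzmk side by side on chromosome 13, and Gzmm and Prf1 apart from each other on chromosome 10. T cell receptor and IL-2 signals, T-box factors and RUNX factors are known to drive several of them.

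Stretches upstream of the start site are shown for the 3 genes that passed the thresholds used here, which differed in the motifs they held. Those of Gzmd and Gzme are shown as well, since their 250-base promoters were 95.6% identical. The Gzmd and Gzme stretches touch no annotated exon, so their likeness does not bear on how reads are told apart. All printed stretches were taken from RefSeq promoters of build GRCm38.p6, and 12 promoters matched, including that of Gzmn and 2 of Gzmm. Each is printed 5′ to 3′ on the gene's own strand, and capitals mark a match to a searched motif on either strand.
Gzmb, chr14:56262335-56262444, minus strand: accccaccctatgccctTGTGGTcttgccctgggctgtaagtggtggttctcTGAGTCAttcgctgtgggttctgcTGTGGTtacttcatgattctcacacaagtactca
Prf1, chr10:61297671-61297750, plus strand: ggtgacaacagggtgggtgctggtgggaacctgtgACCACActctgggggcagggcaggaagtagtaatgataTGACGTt
Gzmk, chr13:113180966-113181065, minus strand: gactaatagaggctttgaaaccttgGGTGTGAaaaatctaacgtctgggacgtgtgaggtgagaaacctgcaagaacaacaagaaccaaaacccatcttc
Gzmd, chr14:56132684-56132773, minus strand: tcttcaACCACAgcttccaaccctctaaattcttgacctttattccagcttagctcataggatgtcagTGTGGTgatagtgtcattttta
Gzme, chr14:56120717-56120806, minus strand: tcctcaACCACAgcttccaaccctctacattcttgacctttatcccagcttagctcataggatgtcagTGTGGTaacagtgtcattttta
The Gzmb stretch reaches from 110 bases to 1 base before its start site, that of Prf1 from 165 to 86 bases before the start site at 61297836, which lies 85 bases inside the widest RefSeq span of that gene, and that of Gzmk from 100 bases to 1 base. The Gzmd and Gzme stretches differed at 5 of their 90 bases.

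Motifs were searched on both strands in the 250 bases before each start site of the RefSeq promoter table. For most members that site is the outer edge of the gene's RefSeq span given with its values. It lies inside the span by 85 bases for Prf1, 10 for Gzmd, 6990 for Gzmc and 4806 for the second start of Gzmm. The windows of these starts therefore fall partly or wholly within longer gene models. The GENCODE annotation puts the outer edge of Gzmb at 56262260 and that of Gzmk at 113225908, against RefSeq sites of 56262334 and 113180965. Sequence just after the RefSeq start was found in a GENCODE transcript for all promoters except those of Gzmb, Prf1 and Gzmk. Distances given here hold for the RefSeq sites only. The RUNX letters TGTGGT, which read ACCACA on the other strand, occurred in the promoters of Gzma, Prf1, the first start of Gzmm, Gzmb and Gzmc to Gzmg, and not in that of Gzmk. They occurred in 14% of the 32851 mouse promoters of the same length. Gzmb held 2 of these matches, at -93 and -34, with the AP-1 letters TGANTCA between them at -58, a motif held by 6.75% of promoters. Gzmk instead held the T-box letters GGTGTGA at -75, as did the second start of Gzmm at -189, against 3.33% of promoters. The CRE letters TGACGT were found in Prf1 at -92 and in Gzmc, Gzmf and Gzmg, against 6.47% of promoters, and in the 3 cluster genes the matches on the 2 strands overlapped. The ETS letters GAGGAAG (10.6% of promoters) occurred in Gzmf, Gzmg and Gzmm and the STAT letters TTCNNNGAA (7.02%) in Gzmm. The letters AAATCAC, searched for GFI1, occurred in none of these promoters and in 2.75% of all. A match describes letters only, and no binding was measured in these files. Other spellings of each motif were not searched, so the lack of a match does not show that a site is absent.

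**Figure D1:**
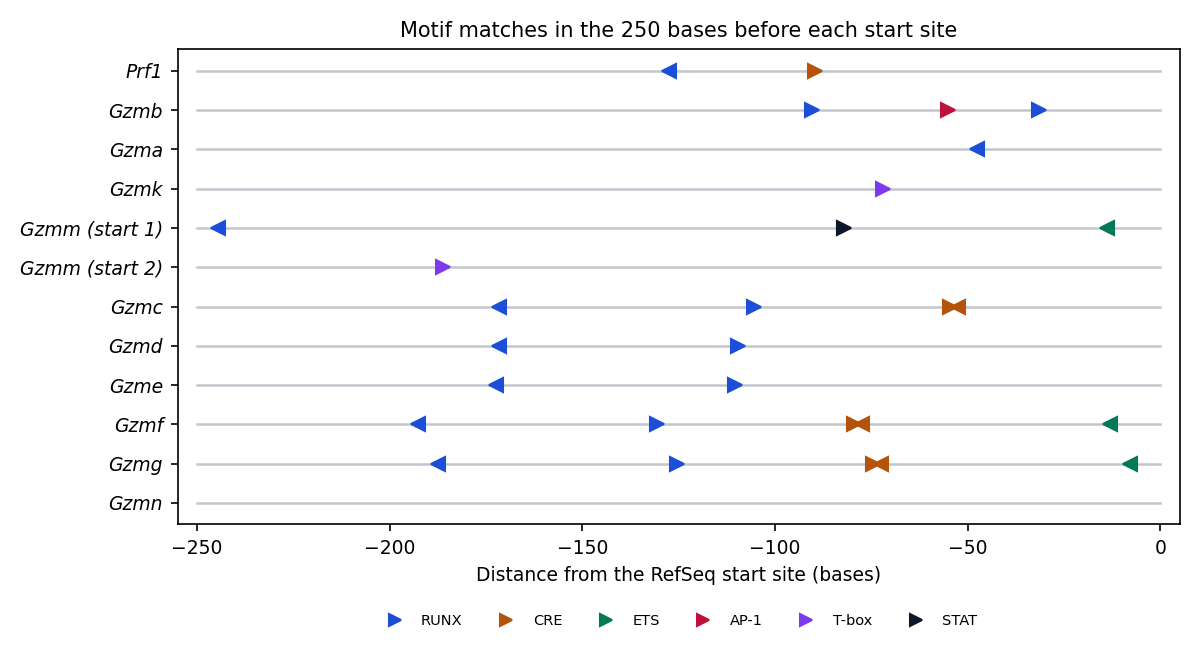
Motif matches in the 250 bases before the RefSeq start site of each granzyme and perforin gene; the x axis is distance from the start site in bases, each line is 1 promoter, and an arrowhead points right for a match on the gene's strand and left for one on the other strand. The Gzmb line carries 2 RUNX matches around 1 AP-1 match, the Gzmk line 1 T-box match alone, and Gzmc, Gzmf and Gzmg share paired CRE matches that Gzmd and Gzme lack.

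The 6 libraries held 18288447 to 18918811 counted fragments in Veh and 19149909 to 19846720 in GSK, and levels are given in CPM, counts relative to a library size scaled by the trimmed mean of M-values (TMM), of which 1 CPM was worth 18.4 to 19.8 counts. Cd8a, Cd8b1, Cd3d, Cd3e and Cd3g, the markers of the labelled cell type, summed to 1937 to 2036 CPM in Veh and 1752 to 1869 CPM in GSK. Natural killer cells also make granzymes and perforin, and 4 of the 6 natural killer markers had at most 10 counts in every sample, with Ncr1, their defining receptor, at 0 or 1 count. The sum of those 6 was 9.72 to 10.9 CPM in Veh and 13.3 to 17.4 CPM in GSK, most of it from Klre1, and its part in the results was not tested. Neutrophil precursor markers summed to at most 0.105 CPM. CD4 T cell markers summed to 3.78 to 5.69 CPM in Veh and 4.81 to 6.98 CPM in GSK. In the same order, B cell markers summed to 5.78 to 7.94 and 5.53 to 6.53 CPM. Myeloid markers summed to 2.79 to 4.68 and 1.30 to 2.73 CPM. Those of mast cells and basophils summed to 5.38 to 6.54 and 3.49 to 5.72 CPM. Cd40lg, a CD4 marker, was higher in all GSK samples, while Cd4 and Foxp3 overlapped. The part of these cells in the results was not tested. Kdm1a, which encodes LSD1, had a log2 fold change of -0.09 ± 0.055 (SE; adjusted p = 0.22 by edgeR's quasi-likelihood test), and since the compound acts on the enzyme, its RNA does not check the treatment.

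Prf1 and Gzmb were higher and Gzmk was lower in GSK, and the other 6 tested granzymes did not pass the thresholds. A gene was called at a Benjamini-Hochberg adjusted p under 0.05 in edgeR's quasi-likelihood test over all tested genes together with a fold change over 1.5. By this rule 2 of the 9 tested members were called higher, beside 2.22% of all tested genes, and 1 was called lower, beside 4.09%. By adjusted p alone the members' counts were the same, 2 higher and 1 lower, where 16.6% of all genes were higher and 15.5% lower. The Veh and GSK values did not overlap for 3 of the 9, beside 46.7% of all tested genes. The median log2 fold change of the 9 was 0.06, with a range from -0.85 to 1.09, and that of all tested genes was -0.0039. The 9 genes include some that share transcript sequence, so they are not 9 separate observations. A lower level in bulk RNA can mean fewer cells making the transcript or less RNA per cell, and these cannot be told apart.

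**Figure D2:**
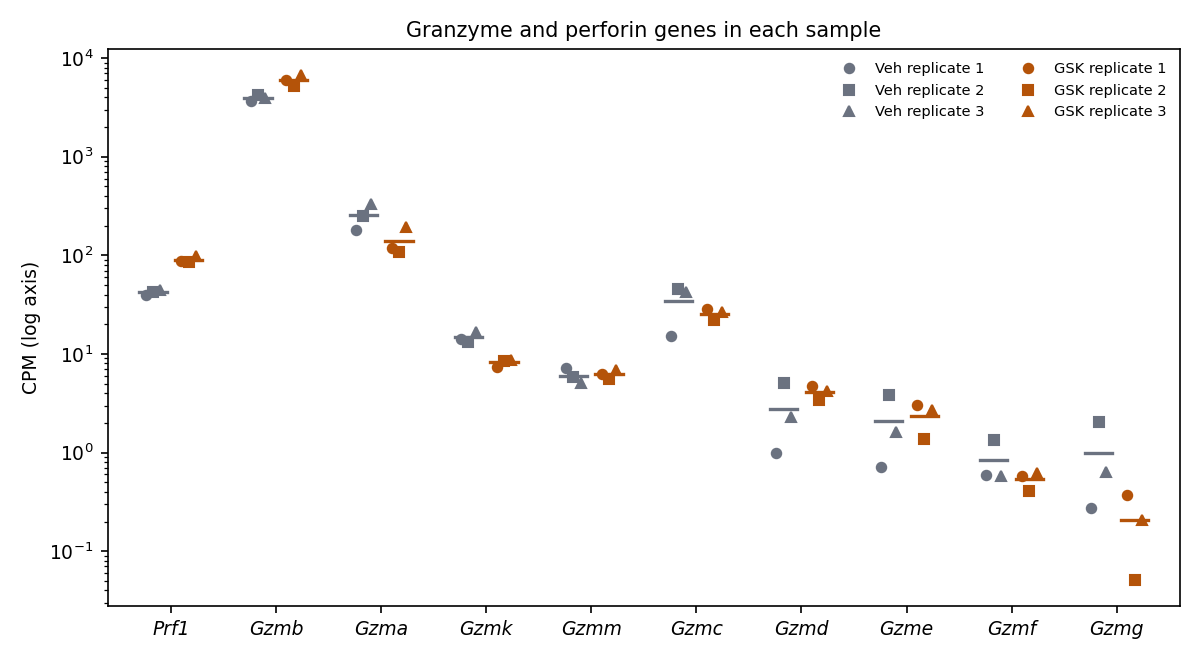
Level of each granzyme and perforin gene in the 6 samples; the y axis is CPM on a log scale, points are samples (shape gives the replicate number, grey Veh, orange GSK) and horizontal bars are group means. Prf1 and Gzmb sat higher in all 3 GSK samples than in all 3 Veh samples and Gzmk lower, while the Veh values of Gzmc, Gzmd, Gzme and Gzmg were spread over 2.98 to 7.50 times from the lowest to the highest.

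Perforin is encoded by a single gene, Prf1 (chr10:61297751-61304684, plus strand, 3 exons). Its counts were 732, 793 and 848 in the Veh samples and 1670, 1686 and 1883 in the GSK samples, or 39.8, 42.5 and 44.6 CPM against 87.7, 85.3 and 98.2 CPM. The lowest GSK sample lay far above the highest Veh sample, and the samples within a group lay close together, with coefficients of variation of 5.63% in Veh and 7.57% in GSK. The log2 fold change was 1.09 ± 0.066 (SE), a 2.14-fold higher level with a 95% interval of 0.95 to 1.24 on the log2 scale (adjusted p = 3.9e-07 by edgeR's quasi-likelihood test). Prf1 ranked 11th of all tested genes by p. It was called under each of the 14 alternative analyses, with log2 fold changes of 1.03 to 1.13 when 1 sample was left out.

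Over the 6 samples, the tested genes whose log2 CPM moved most like that of Prf1 were Plxna1, a semaphorin receptor, at a root mean square distance of 0.066 on the log2 scale, Eomes at 0.080 and Rxra, a retinoid nuclear receptor, at 0.085. Plxna1 rose from 8.63 ± 0.65 to 17.7 ± 0.39 CPM (SD, n = 3) and Rxra from 42.0 ± 4.1 to 82.1 ± 7.5 CPM (SD, n = 3). With 6 samples in 2 groups, this likeness is mostly a shared size of difference between the groups.

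Granzyme B, the main caspase-activating granzyme, cuts after aspartate. Its gene Gzmb (chr14:56258836-56262334, minus strand, 5 exons) had 66978, 78622 and 74134 counts in Veh and 113931, 103346 and 130501 in GSK, or 3643, 4218 and 3896 CPM against 5981, 5230 and 6804 CPM. All GSK samples lay above all Veh samples, with GSK replicate 2 nearest to Veh and GSK replicate 3 farthest. On the log2 scale GSK exceeded Veh by 0.62 ± 0.12 (SE), 1.53-fold, with a 95% interval of 0.30 to 0.93 (adjusted p = 0.019 by edgeR's quasi-likelihood test). This gene passed the fold threshold narrowly and its call rested on single samples: the adjusted p by edgeR's quasi-likelihood test was 0.067 without Veh replicate 1, 0.060 without Veh replicate 3 and 0.053 without GSK replicate 1, and the log2 fold change was 0.51 without GSK replicate 3. Direction stayed the same in each of these. With all samples kept, DESeq2 also called Gzmb higher, at a log2 fold change of 0.62 (adjusted p = 1.4e-05 by DESeq2). The edgeR test set against a fold of 1.5 did not call it.

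Gzmb was among the most abundant transcripts of the culture. Its rank by counts was 4 or 5 in the Veh samples and 3 or 4 in the GSK samples, and it took 0.394 ± 0.029% (SD, n = 3) of all counts in Veh and 0.596 ± 0.076% in GSK. Compared per kilobase of exon, Gzmb stood at 2729 ± 200.5 CPM per kb in Veh and 4182 ± 548 in GSK (SD, n = 3), above every other member in both groups. Its share of the summed per-kilobase level of the 10 members was 89.3 ± 2.5% in Veh and 95.01 ± 0.54% in GSK.

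Granzyme A, a trypsin-like protease that can kill without caspases, is encoded by Gzma (chr13:113093824-113100981, minus strand, 6 exons), which overlaps Cdc20b in the RefSeq annotation. Its counts were 3322, 4685 and 6275 in Veh and 2275, 2122 and 3755 in GSK, or 181, 251 and 330 CPM against 119, 107 and 196 CPM. GSK replicate 3 lay above Veh replicate 1, so the groups overlapped. The log2 fold change was -0.85 ± 0.36 (SE) with a 95% interval of -1.82 to 0.12. It did not pass the test (adjusted p = 0.15 by edgeR's quasi-likelihood test). A fit that also took the replicate number into account did call Gzma lower, although the numbers are not known to pair the samples. The point value was close to that of Gzmk, and the samples of each group spread over 1.82 times between the lowest and the highest.

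Within each sample, the ratio of Gzmb to Gzma reads takes out the scaling between libraries. It was 20.2, 16.8 and 11.8 in the Veh samples and 50.1, 48.7 and 34.8 in the GSK samples. All 3 GSK ratios lay above all 3 Veh ratios, although Gzma by itself overlapped between the groups. For Gzmb reads per Prf1 read the values were 91.5, 99.1 and 87.4 in Veh and 68.2, 61.3 and 69.3 in GSK. Here the GSK ratios were the lower ones, with no overlap. The ratio of Gzma to Gzmk reads was 17.1 ± 3.8 in Veh and 17.0 ± 4.9 in GSK (SD, n = 3), and these overlapped. The ratios were chosen after the values of the genes were seen and carry no test.

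**Figure D3:**
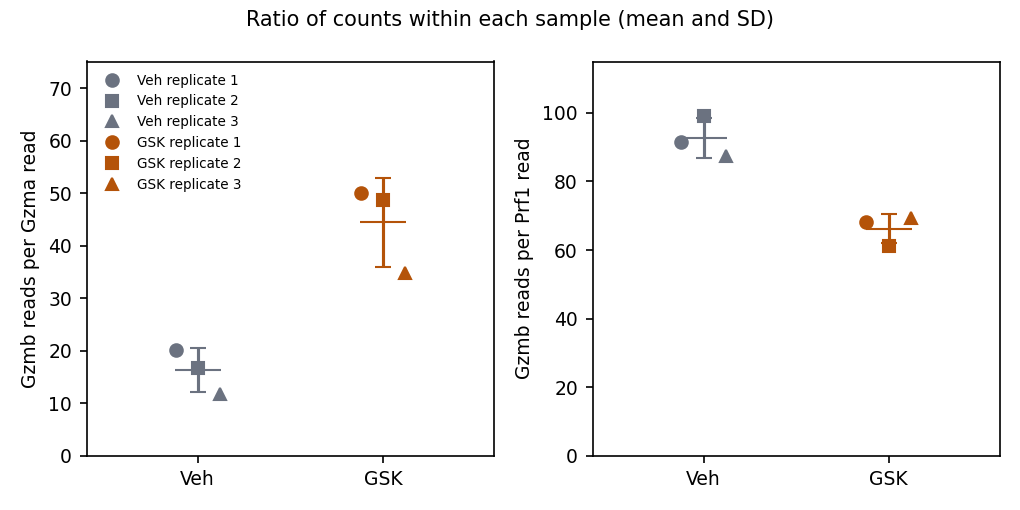
Gzmb reads per Gzma read (left, y axis from 0) and per Prf1 read (right, y axis from 0) in each of the 6 samples; points are samples with their shape giving the replicate number, and horizontal bars with whiskers are the mean and SD of 3. The GSK samples lay between 34.8 and 50.1 on the left, above the highest Veh ratio of 20.2, and between 61.3 and 69.3 on the right, below the lowest Veh ratio of 87.4.

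Granzyme K is the other trypsin-like granzyme, and its gene Gzmk (chr13:113171630-113180965, minus strand, 6 exons) lies beside Gzma. It had 261, 249 and 319 counts in Veh and 142, 167 and 168 in GSK, or 14.2, 13.4 and 16.8 CPM against 7.45, 8.45 and 8.76 CPM. The 3 GSK values all lay under the lowest Veh value. Its log2 fold change was -0.85 ± 0.12 (SE), 1.80-fold lower in GSK, with a 95% interval of -1.11 to -0.58 (adjusted p = 2.7e-04 by edgeR's quasi-likelihood test). It kept this call without any 1 sample, at log2 fold changes of -0.91 to -0.74, but did not pass when the test was set against a fold of 1.5 instead of against no change (adjusted p = 0.30 in edgeR). In the GENCODE annotation a longer Gzmk model runs across Esm1 on the opposite strand, and Esm1 itself measured 10.5 ± 2.5 CPM in Veh, with 11.0 ± 2.1 CPM in GSK (SD, n = 3).

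The 3 tested genes with log2 CPM most like that of Gzmk over the 6 samples were Lcn4, a lipocalin, at a root mean square distance of 0.045, Sik1, a salt-inducible kinase, at 0.076 and Acss2, the nuclear and cytosolic acetyl-CoA synthetase, at 0.077. Lcn4 fell from 18.1 ± 1.9 to 10.1 ± 0.98 CPM, and Acss2 fell from 37.9 ± 3.5 to 21.6 ± 2.8 CPM (SD, n = 3). As for Prf1, this likeness is mostly a shared size of difference between the groups.

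Granzyme M, which cuts after methionine and related residues and is best known from innate-like lymphocytes, is encoded by Gzmm (chr10:79689020-79695261, plus strand, 5 exons). Its counts were 131, 109 and 97 in Veh and 119, 111 and 133 in GSK, so the groups lay on top of each other. The log2 fold change was 0.06 ± 0.16 (SE; adjusted p = 0.82 by edgeR's quasi-likelihood test), with a 95% interval of -0.30 to 0.41 that lies inside the 1.5-fold limits, and its sign turned without Veh replicate 3 and without GSK replicate 3.

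**Figure D4:**
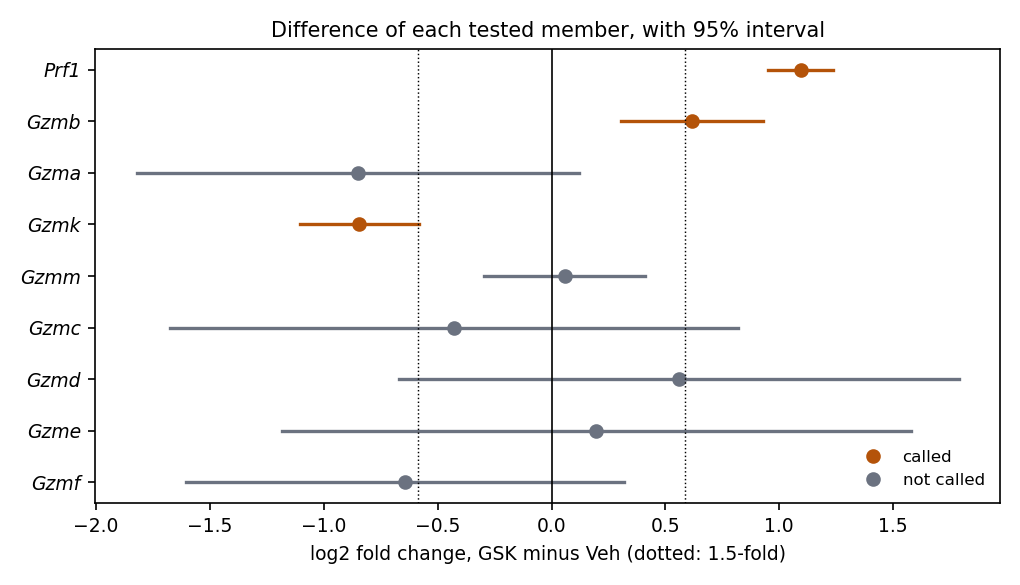
Log2 fold change of the 9 tested members, GSK minus Veh, with 95% intervals from edgeR; the x axis is log2 fold change, dotted lines mark a 1.5-fold difference, and orange marks called genes. Prf1 has the narrowest interval, 0.95 to 1.24, while those of Gzma, Gzmc, Gzmd, Gzme and Gzmf cross 0 and reach past a 1.5-fold difference.

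The rodent granzymes of chromosome 14 are less studied proteases whose genes lie in the order Gzmb, Gzmc, Gzmf, Gzmn, Gzmg, Gzmd and Gzme from the higher to the lower coordinate, all on the minus strand. None of the 4 tested genes other than Gzmb was called, and their samples overlapped between the groups. Gzmc was the more abundant of them: per kilobase of exon, Gzmc stood at 38.3 ± 19 CPM per kb in Veh and 28.5 ± 3.6 in GSK, while Gzmd, Gzme, Gzmf and Gzmg lay under 5 CPM per kb in both groups.

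Gzmc (chr14:56231397-56241647) had 279, 844 and 806 counts in Veh and 538, 433 and 505 in GSK. Veh replicate 1 held the fewest counts of the 6 samples and lay below all GSK samples. The log2 fold change was -0.43 ± 0.46 (SE; adjusted p = 0.54 by edgeR's quasi-likelihood test). Without Veh replicate 1 it was -0.78 at an adjusted p of 3.4e-04 in edgeR, so the outcome for Gzmc turned on 1 sample.

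Gzmd (chr14:56129556-56132603) had 18, 95 and 44 counts in Veh and 91, 68 and 80 in GSK. Here Veh replicate 2 was the highest of all 6 samples and the other Veh samples were the lowest 2. The log2 fold change was 0.56 ± 0.51 (SE; adjusted p = 0.45 by edgeR's quasi-likelihood test), and it was 1.32 at an adjusted p of 0.013 in edgeR without Veh replicate 2.

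Gzme (chr14:56117619-56120625) had 13, 72 and 31 counts in Veh and 58, 27 and 52 in GSK, with a log2 fold change of 0.20 ± 0.58 (SE; adjusted p = 0.83 by edgeR's quasi-likelihood test). The sign of this difference turned without Veh replicate 1 and without GSK replicate 1. Gzmf (chr14:56205263-56211407) had 11, 25 and 11 counts in Veh and 11, 8 and 12 in GSK, with a log2 fold change of -0.64 ± 0.45 (SE; adjusted p = 0.30 by edgeR's quasi-likelihood test). Apart from Veh replicate 2, all Gzmf values lay between 8 and 12 counts.

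Gzmg (chr14:56156581-56159579) had 5, 38 and 12 counts in Veh and 7, 1 and 4 in GSK and was not tested. Veh replicate 2 held most of its reads, and GSK replicate 1 lay above Veh replicate 1. Gzmd, Gzme, Gzmf and Gzmg were thus counted from few reads, and their 95% intervals, where tested, allow differences larger than 1.5-fold in either direction for Gzmd and Gzme.

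The Veh samples ordered the 6 chromosome 14 genes in nearly 1 way. Veh replicate 2 was the highest Veh sample for each of the 6, Gzmb included, and Veh replicate 1 was the lowest for all but Gzmf. Over all 10 members Veh replicate 1 was the lowest Veh sample for 7, and GSK replicate 2 was the lowest GSK sample for 9, all but Gzmk. The share of all tested genes with these orders was not counted, so they are not shown to be particular to the members. Coefficients of variation in Veh ran from 48.4% for Gzmc to 95.2% for Gzmg, beside 5.63% for Prf1 and 7.35% for Gzmb. In GSK they were 12.7% for Gzmc, 16.2% for Gzmd and 75.9% for Gzmg.

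These genes also resemble each other in sequence. The Gzmd and Gzme transcripts were 94.8% identical over their alignment, Gzme and Gzmg 90.8% and Gzmd and Gzmg 90.5%, while Gzmb and Gzmc were 77.6% identical. Of the 31-base stretches of each transcript, 42.1% in Gzme, 38.2% in Gzmd, 33.8% in Gzmg, 22.8% in Gzmf and 14.8% in Gzmc also occurred in a transcript of another gene, mostly of this cluster, against 1.35% in Gzmb, 0.409% in Prf1 and 0 in Gzma, Gzmk and Gzmm. No stretch of 150 bases, the length of 1 read, was shared by any member. Short aligned parts of reads can therefore fall on more than 1 of Gzmc to Gzmg, while an exact match over a whole 150-base read cannot. The lengths of the aligned parts are not known here, and how far the split of counts among these genes is affected was not tested. Their promoters were alike as well, at 84.4% to 95.6% identity over the 250 bases.

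Per kilobase of exon, the order of levels in Veh was Gzmb, Gzma, Gzmc, Prf1, Gzmk, Gzmm, Gzmd, Gzme, Gzmg and Gzmf. Gzmc and Prf1 overlapped in that order, as did each neighbouring pair from Gzmm to Gzmf. In GSK, Prf1 at 35.0 ± 2.6 CPM per kb took the place of Gzmc, which it exceeded with no overlap, after 16.4 ± 0.92 in Veh (SD, n = 3). Gzmd and Gzmm overlapped in GSK at 4.28 and 4.26 CPM per kb, and Gzmg came last at 0.230.

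Among the listed neighbours of the members, no tested gene was called. The list does not hold every gene at these places: Cdc20b, which overlaps Gzma, was not on it. The mast cell and neutrophil protease genes Mcpt1, Mcpt8, Cma1, Cma2 and Ctsg, which share the chromosome 14 region with the granzymes, had 6 counts or fewer in every sample, beside 66978 or more for Gzmb. Of 23 neighbour names listed, 1 was an older name of Pald1, and Stxbp6, which was not tested, turned out to lie on chromosome 12, away from the members. Of the 23 names 15 were in the table and 6 were tested. By edgeR or by DESeq2 0 were called, where edgeR called 2.22% of all tested genes higher and 4.09% lower. At an unadjusted p under 0.05 in edgeR, 1 was higher, beside 21.8% of all tested genes, and 2 were lower, beside 21.2%. By adjusted p alone 1 was higher, beside 16.6%, and 2 were lower, beside 15.5%. Sgpl1, near Prf1, passed the adjusted p alone with a log2 fold change of 0.39 ± 0.060, and Bsg, near Gzmm, did so with -0.37 ± 0.043, as did Snx18, on the far side of Gzmk from Gzma, with -0.19 ± 0.067 (SE, edgeR's quasi-likelihood test). Pald1, beside Prf1, had 0.84 ± 0.45 (SE; adjusted p = 0.17 by edgeR's quasi-likelihood test) at about 1 CPM or less.

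Among 20 genes for granule content, granzyme activation and inhibition, 18 were tested, 0 were called higher and 1 was called lower by both edgeR and DESeq2, with a median log2 fold change of 0.07 in edgeR. These shares stand beside 2.22% and 4.09% of all tested genes. At an unadjusted p under 0.05 in edgeR, 8 of the 18 were higher, beside 21.8% of all tested genes, and 5 were lower, beside 21.2%. The called gene was Ctsl, the lysosomal protease cathepsin L, which went from 4.90 ± 1.0 to 2.74 ± 0.20 CPM (SD, n = 3). By adjusted p alone 7 were higher, beside 16.6% of all tested genes, and 4 were lower, beside 15.5%, and all of these but Ctsl stayed under 1.5-fold. Fasl, a death ligand carried to the same contact, had a log2 fold change of 0.54 ± 0.078 (SE). Serpinb9, the inhibitor that shields killer cells from their own granzyme B, went from 138 ± 4.0 to 191 ± 10.02 CPM (SD, n = 3). Nkg7, a granule membrane protein, went from 421 ± 5.4 to 582 ± 31 CPM (SD, n = 3). The log2 fold changes were 0.30 for Cst7, the cystatin that restrains cathepsin C, 0.40 for Calr, a calcium-binding chaperone also found in granules, 0.35 for Atp6v0a1, a proton pump subunit, and 0.14 for Ctsw, a cathepsin of killer cells. Those that were lower were Srgn, the serglycin core, at -0.25, and the serpins Serpinb6a at -0.35 and Serpinb1a at -0.32.

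Among 26 genes for granule transport and release, 25 were tested, 0 were called higher and 1 was called lower by both edgeR and DESeq2, with a median log2 fold change of -0.05 in edgeR. At an unadjusted p under 0.05 in edgeR, 6 of the 25 were higher and 6 lower, near the 21.8% and 21.2% of all tested genes. The called gene was Sytl2, a Rab27 effector that helps dock granules, which went from 118 ± 12 to 76.3 ± 7.7 CPM (SD, n = 3), with a log2 fold change of -0.62 that was -0.54 without Veh replicate 3 and -0.57 without GSK replicate 1, both under 1.5-fold. By adjusted p alone 3 were higher and 5 lower, beside 16.6% and 15.5% of all tested genes. Stx11, a fusion protein needed for release, and the motors Kif5b and Myo5a were the higher ones, at log2 fold changes of 0.26, 0.21 and 0.25. Stxbp2, the partner of Stx11, was lower at -0.14, as were Rab27b at -0.40, the sorting adaptor Ap3b1 at -0.14 and Vamp2 at -0.41. The remaining 17 did not pass.

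All 22 listed regulators of granzyme and perforin transcription were tested, and 2 were called higher, beside 2.22% of all tested genes, and 5 lower, beside 4.09%, with a median log2 fold change of -0.08. By adjusted p alone 7 were higher and 9 lower, beside 16.6% and 15.5% of all tested genes. The T-box factors moved apart: Eomes went from 204 ± 9.4 to 433 ± 18 CPM and Tbx21, which encodes T-bet, from 44.5 ± 0.72 to 28.5 ± 2.4 CPM (SD, n = 3), at log2 fold changes of 1.08 ± 0.047 and -0.64 ± 0.071 (SE). Eomes was also the second nearest gene to Prf1 over the 6 samples, a likeness that is mostly a shared size of difference between the groups. Whether Eomes acts on Prf1 was not tested. Il2ra, the high-affinity IL-2 receptor chain, went from 854 ± 27 to 1285 ± 55 CPM (SD, n = 3), a log2 fold change of 0.59 that fell under 1.5-fold without Veh replicate 1, Veh replicate 3 or GSK replicate 1, at 0.58, 0.57 and 0.55, and also with library totals in place of TMM scaling, at 0.57.

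The other 4 that were called lower were Tcf7 and Klf2, factors of resting and memory cells, at -1.28 and -1.05, the repressor Bach2 at -0.63 and Zeb2, an effector factor, at -0.65. Zeb2 stood at only 3.25 ± 0.45 CPM in Veh (SD, n = 3) and lost its call without any 1 sample except Veh replicate 2, at adjusted p values of 0.054 to 0.16 in edgeR, and it was not called by DESeq2 (adjusted p = 0.10). Bach2 fell under 1.5-fold without Veh replicate 1, GSK replicate 1 or GSK replicate 3, at -0.58, -0.58 and -0.56. Without reaching 1.5-fold, Id2, Irf4, Hif1a, Notch1 and Il2rg were higher by adjusted p, at log2 fold changes from 0.57 for Id2 to 0.11 for Il2rg, and Mef2d, Stat4, Runx3 and Stat5b were lower, from -0.38 for Mef2d to -0.16 for Stat5b. Id2 and Irf4 crossed 1.5-fold in some leave-outs, at 0.60 for both without Veh replicate 2.

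**Figure D5:**
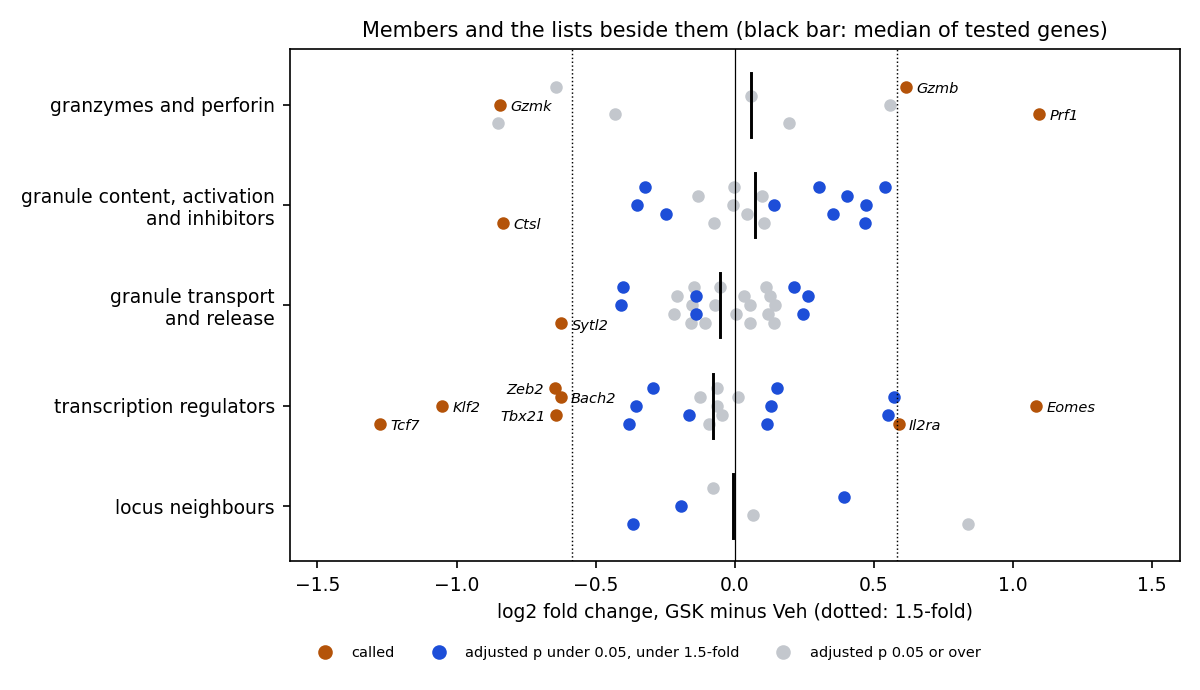
Log2 fold change of the tested members and of the 4 lists set beside them, GSK minus Veh; each point is 1 gene, orange marks called genes, blue those passing the adjusted p alone, black bars are medians and dotted lines 1.5-fold. The medians of all 5 rows lay between -0.08 and 0.07, while single genes ranged from Tcf7 at -1.28 to Prf1 at 1.09.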

How the data were processed

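Poly(A) RNA of 6 samples was made into TruSeq Stranded libraries and sequenced as 150-base read pairs. From the submitters' processing notes, the authors trimmed reads with Trimmomatic, aligned them to GRCm38 with HISAT2 2.1.0 and counted them per gene with HTSeq 0.11.2. The notes also name Cufflinks 2.2.1 and DESeq2 1.22.2. The annotation release, strand setting and handling of reads that map to several genes are not given in the sources used here. The deposited values are raw counts, not normalized.

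The counts were scaled by TMM, filtered with filterByExpr and fitted over all genes by edgeR 4.0.16 (robust quasi-likelihood, R 4.3.3, limma 3.58.1), GSK against Veh, with Benjamini-Hochberg adjustment over 11698 genes. Genes were called at an adjusted p under 0.05 and a fold over 1.5. With 3 against 3, an exact permutation test cannot go below p = 0.1, so no single-value test was run. Lists were counted, not tested. The fit was tested on simulated data. Replicates differed by more than counting noise (chi-square per degree of freedom 4.07 to 9.38).

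Named genes were all members, Gzmn, every list gene passing the adjusted p, and the 3 genes nearest to each of the 2 members with the smallest p. The members and lists were chosen with earlier results of these data known, and the motifs and ratios after the files were seen. Alternatives were DESeq2 1.42.0, RLE and total-count scaling, 2 filters, a replicate block, adjusted p alone, a test against 1.5-fold and leaving out each sample. Same-numbered samples correlated at -0.052, -0.081 and 0.16 in their deviations from the group means. These values cannot show that the samples are unpaired. Since the labels do not pair the samples either, the numbers were not taken as pairs in the main fit. Promoter sequences and the gene spans of the members are from RefSeq (GRCm38.p6). Transcript sequences, exon counts, exonic lengths and the positions of neighbours are from GENCODE vM21. Overlaps are from GENCODE as well, except that of Gzma with Cdc20b, which is from RefSeq.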

Additional observations from a re-analysis of the deposited data

How the results depend on the processing

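Prf1 was called higher in every alternative, and Gzmk lower in all but the test against a fold of 1.5. Under that test 1 member was higher and 0 lower, and the content, transport and regulator lists gave 0, 0 and 1 called genes. Leaving out 1 sample gave 1 to 3 members higher and 1 to 3 lower: Gzmb was lost without Veh replicate 1, Veh replicate 3, GSK replicate 1 or GSK replicate 3, Gzmd was added without Veh replicate 2, and Gzmc and Gzmg without Veh replicate 1. It gave 1 to 2 called content genes, 0 to 1 transport genes and 4 to 9 regulators. DESeq2 and edgeR with no filter each called 2 members lower, Gzmk and Gzmg, the latter at log2 fold changes of -2.24 and -2.20 (adjusted p = 0.032 and 0.048). The replicate block also called 2, Gzmk and Gzma, Gzma at -0.86 with an adjusted p of 0.0039 in edgeR, although the numbers are not known to pair the samples. By adjusted p alone the content, transport, regulator and neighbour lists held 11, 8, 16 and 3 genes. Direction turned for Gzme, at -0.21 without Veh replicate 1 and -0.02 without GSK replicate 1 (range -0.21 to 1.01), and for Gzmm, at -0.050 without Veh replicate 3 and -0.02 without GSK replicate 3 (range -0.050 to 0.20). The cause of these changes was not tested. Low counts limit Gzmd, Gzme, Gzmf and Gzmg.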
